A study of Mus musculus with 22 samples.

Results

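The genes described here encode 9 enzymes of serine, one-carbon and amino acid synthesis: Phgdh, Psat1, Psph, Shmt1, Shmt2, Mthfd1, Mthfd2, Asns and Bcat1. They were taken by symbol from a fixed list of 9 names, among 12393 genes that the array represents by a probe set of 1 symbol. They carry 24 such probe sets, of which 23 passed a filter on dim signals, and all 9 genes were among the 6437 genes tested. Another 2 probe sets name Phgdh together with a second gene, out of 22690 probe sets on the array. The study measured RNA of mouse B cells on Affymetrix MOE430A arrays at 3 stages of Myc-driven lymphoma, all on the C57Bl/6 background. The 4 wild type arrays hold B220-positive cells of mice without the transgene. The 5 premalignant arrays hold B cells of transgenic littermates, and both kinds of mice were 4 to 6 weeks old. These transgenic mice carry Eμ-Myc, in which an immunoglobulin heavy chain enhancer drives Myc in cells of the B lineage. The 13 malignant arrays hold lymphomas that arose in 13 independent Eμ-Myc mice. Lymphoma samples carry the same age label, which is not used here. B cells were taken from marrow or spleen with magnetic beads against B220 or IgM, and the labels do not say which tissue was used for any array. Titles of the wild type arrays name B220-positive cells, and those of the premalignant and malignant arrays name no marker. The comparison of premalignant with wild type cells addresses what the transgene changes before lymphoma, and the comparison of malignant with premalignant cells addresses what differs once lymphoma has formed.

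Serine is made from a glycolytic intermediate by Phgdh, Psat1 and Psph in turn. The hydroxymethyltransferases Shmt1 in the cytosol and Shmt2 in mitochondria split serine into glycine and a one-carbon unit bound to tetrahydrofolate, and Mthfd1 and Mthfd2 interconvert these folate-bound units in the cytosol and in mitochondria. One-carbon units are used to build purines and thymidylate and feed the methionine cycle. Asns makes asparagine from aspartate and glutamine, and Bcat1 is the cytosolic transaminase of leucine, isoleucine and valine. Myc is a transcription factor that binds E-box sequences, and Atf4 is a transcription factor of the response to amino acid shortage, for which Asns is a classical target.

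The promoters of the 9 genes were searched for 3 motifs, in windows from 250 bases before to 50 bases after the annotated start (RefSeq, build GRCm38.p6, 9 of 9 genes matched). The E-box was searched as CACGTG. A variant of the E-box was searched as CACGCG. The third was TGATGNAA, the core letters of the amino acid response element. Both strands were read for each, and the motifs do not overlap one another in these windows. CACGTG was in the windows of 0 of the 9 genes and of 8.09% of all 27025 genes with a window. CACGCG was in those of 5 of the 9, namely Asns, Bcat1, Psat1, Shmt1 and Shmt2, and of 10.5% of all genes. TGATGNAA was in that of 1 of the 9, Asns, and of 4.51% of all genes. The Asns window is shown because it holds both motifs, TGATGAAA from 23 bases and CACGCG from 8 bases before the start. The Psat1 and Shmt2 windows are shown as further examples of CACGCG, at 148 bases before and 39 bases after the start. The windows of Bcat1 and Shmt1 and another Psat1 window hold CACGCG too and are not shown. Capitals mark the motifs, and each window is printed on the gene's own strand, which is the minus strand for all 3. A match of letters is a description and does not show binding.
Asns, chr6:7693160-7693459: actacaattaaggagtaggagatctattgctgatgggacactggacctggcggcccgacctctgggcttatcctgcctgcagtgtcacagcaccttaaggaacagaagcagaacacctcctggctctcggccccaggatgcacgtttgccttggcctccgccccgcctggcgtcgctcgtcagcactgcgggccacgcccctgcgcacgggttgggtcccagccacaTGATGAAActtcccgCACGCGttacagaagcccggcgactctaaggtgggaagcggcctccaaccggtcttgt
Psat1, chr19:15925010-15925309: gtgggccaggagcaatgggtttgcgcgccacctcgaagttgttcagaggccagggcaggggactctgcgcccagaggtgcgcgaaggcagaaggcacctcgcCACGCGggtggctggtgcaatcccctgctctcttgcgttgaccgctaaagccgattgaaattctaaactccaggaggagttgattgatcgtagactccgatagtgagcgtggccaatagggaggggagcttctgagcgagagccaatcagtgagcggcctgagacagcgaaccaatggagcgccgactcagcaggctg
Shmt2, chr10:127522395-127522694: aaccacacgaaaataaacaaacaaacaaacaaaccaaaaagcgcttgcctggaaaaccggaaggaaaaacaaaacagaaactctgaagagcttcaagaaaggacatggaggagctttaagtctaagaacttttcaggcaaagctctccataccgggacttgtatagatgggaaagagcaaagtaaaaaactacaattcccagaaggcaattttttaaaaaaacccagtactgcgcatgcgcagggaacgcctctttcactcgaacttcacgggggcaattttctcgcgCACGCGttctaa

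Levels are given as log2 of the deposited intensity, and a gene is read through the brightest of its probe sets, by the mean of the 22 arrays. Levels of different probe sets are not comparable with each other. Myc had log2 levels of 7.39, 6.74, 6.96 and 7.07 in the wild type arrays, 10.01, 9.53, 10.21, 10.05 and 10.04 in the premalignant arrays and 8.67 to 10.76 in the lymphomas (median 9.62). Every transgenic array thus lay above every wild type array, as the labels of the transgene have it. The labels do not say that the wild type and premalignant samples came from separate mice, so that p-values measure the spread between these samples. Within their groups, premalignant replicate 1 and wild type replicate 2 correlated least with the remaining arrays (mean r = 0.938 and 0.956). The log2 signal of beta-actin at its 3′ end minus that at its 5′ end was 0.77 ± 0.095 in wild type, 0.70 ± 0.085 in premalignant and 1.93 ± 0.37 in malignant arrays (SD, n = 4, 5 and 13). Of 10 markers of dividing cells, 10 rose in premalignant over wild type cells, 8 in malignant over premalignant cells and 10 in malignant over wild type cells. Their summed intensity ranged from 1639 to 2109 in wild type, 4147 to 7534 in premalignant and 5688 to 8705 in malignant arrays. Of 6 B cell markers tested, 4, 6 and 6 fell in the same comparisons, and Pax5, on the array but not among the 6, was below the detection level (log2 4) on average in each group. The B cell sum ranged from 34822 to 46639 in wild type, 24015 to 32887 in premalignant and 5582 to 15558 in malignant arrays. Of 5 stroma and endothelium markers tested, 3 rose and 1 fell in malignant over premalignant cells. Those that rose, Col1a2, Col3a1 and Sparc, were at least 13.3, 17.0 and 14.6-fold higher. Each exceeded the detection level in all 13 lymphomas and in 0 premalignant or wild type arrays. Pecam1 was 2.15-fold lower, and Col1a1 did not pass. The stroma sum was 260 to 295 in wild type, 135 to 192 in premalignant and 297 to 3561 in malignant arrays, with Cdh5, Kdr and Vwf below the detection level on average in each group. All 7 T cell markers on the array were below it on average in each group, and on their brightest probe sets Thy1 exceeded it in 3 lymphomas, Cd4 in 1 and Cd3d in 1 premalignant array. The probe set on which Cd4 was tested exceeded it in 4 of 13 lymphomas and did not pass in any comparison. Of 5 neutrophil markers tested 0 passed in limma in any comparison, and 4, 0 and 0 had an unadjusted p under 0.05. The neutrophil sum was 66.0 to 629 in wild type, 436 to 912 in premalignant and 60.6 to 5987 in malignant arrays, with Elane, Mpo, Ltf and Camp below the detection level on average in each group. Of 7 markers of monocytes and macrophages 2 rose and 2 fell in malignant cells over either other group, 3 of 4 for plasma cells fell in malignant cells over either other group and 1 fell in premalignant over wild type cells, and both for erythroid cells fell in malignant over wild type cells. The part of tissue, cell division, other cells or RNA quality in the changes given here was not tested. These are bulk samples, in which a changed share of cells and a changed amount of RNA per cell cannot be told apart.

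**Figure D1:**
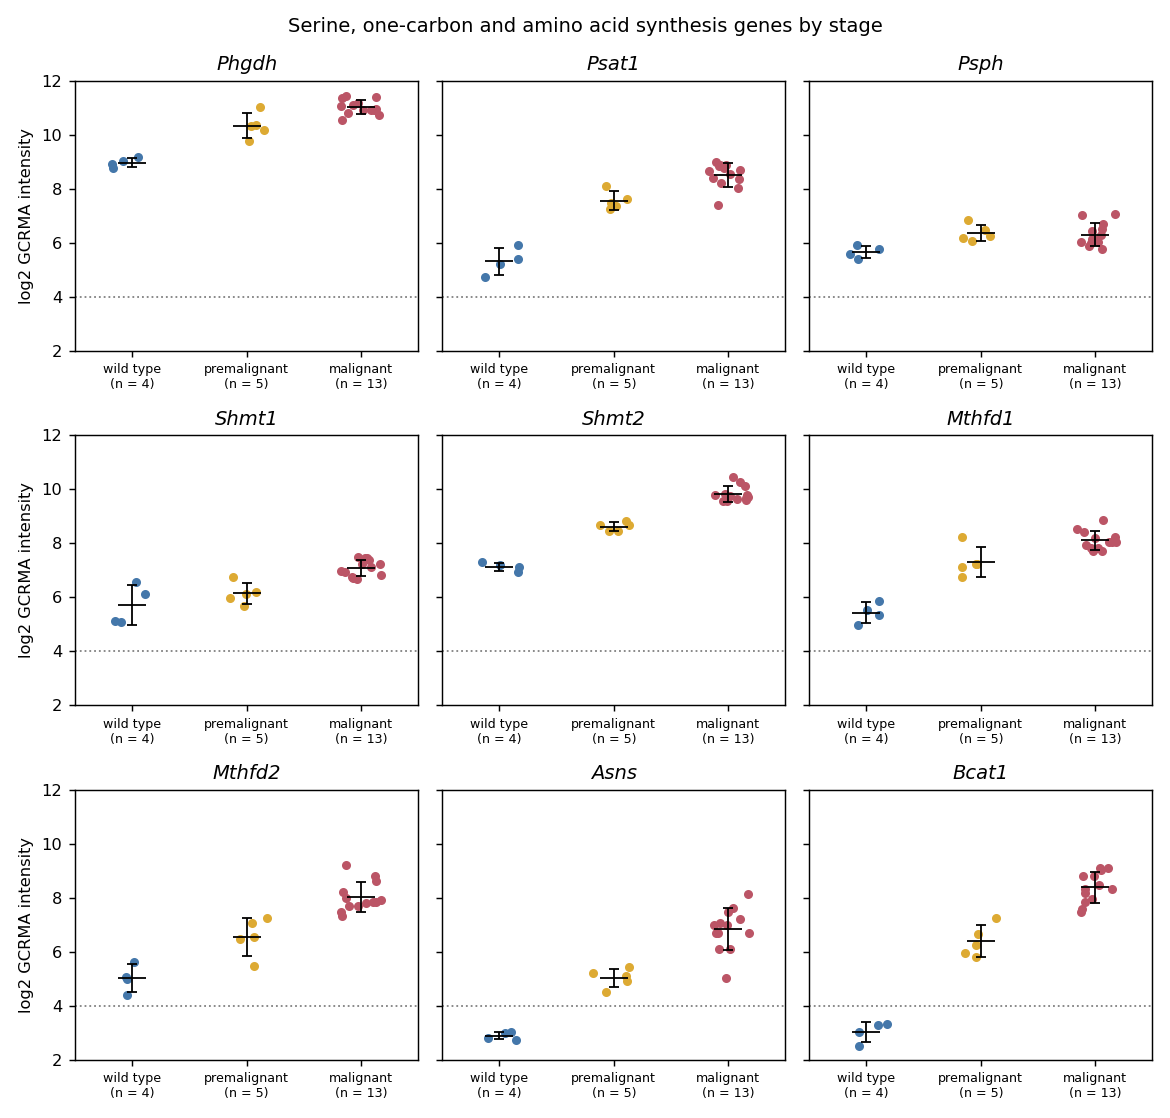
Log2 GCRMA intensity of the 9 genes, 1 panel each, in 4 wild type, 5 premalignant and 13 malignant arrays, with 1 point per array, the mean and its SD. The dotted line is the detection level of log2 4. Asns and Bcat1 lie below it in all 4 wild type arrays and above it in all other arrays, and Psph shows the smallest change from wild type to malignant arrays.

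In premalignant over wild type cells 8 of the 9 genes rose and 0 fell, where 12.7% of all genes tested rose (limma adjusted p under 0.05). All 5 premalignant arrays lay above all 4 wild type arrays for 7 of the 9 genes, as for 11.2% of all genes. The median log2 change was 1.53 over the 9 genes, or 1.48 with means below the detection level set to it, and -0.05 over all genes. In malignant over premalignant cells 8 of the 9 rose and 0 fell, where 24.8% of all genes rose. The 13 lymphomas lay above the 5 premalignant arrays for 3 of the 9, Shmt2, Mthfd2 and Bcat1, as for 6.28% of all genes. Each of these 3 also had a probe set on which the 2 groups overlapped. The lowest lymphoma and the highest premalignant levels were 8.22 and 8.47 on 1426423_at of Shmt2. They were 6.78 and 7.13 on 1419253_at of Mthfd2, and 4.49 and 5.00 on 1430111_a_at of Bcat1. The median change was 0.95 over the 9 genes and 0.09 over all genes. In malignant over wild type cells all 9 rose, where 31.8% of all genes rose, and the groups did not overlap for 8 of the 9, as for 18.3% of all genes. That median was 2.69, beside 0.04 over all genes. The gene without a call was Shmt1 in the first comparison and Psph in the second. Each pair of these comparisons shares 1 group of arrays, so that their counts are not independent. Without wild type replicate 2 and premalignant replicate 1 the counts of genes that rose were 7, 8 and 8 of 9.

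**Figure D2:**
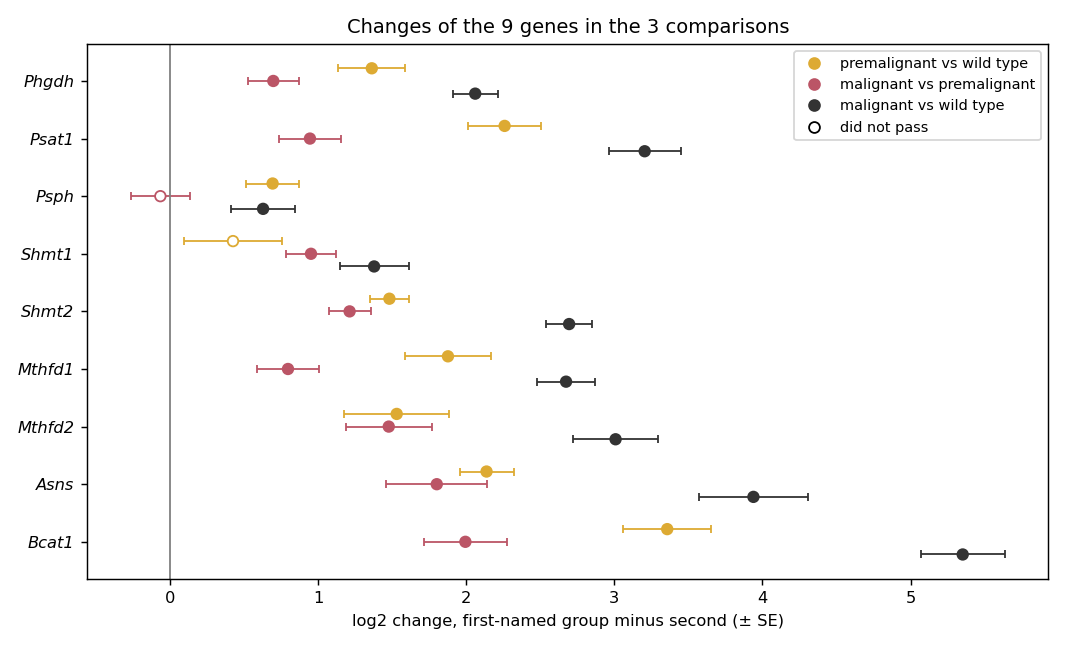
Fitted log2 change of each of the 9 genes with its standard error, for premalignant against wild type (yellow), malignant against premalignant (red) and malignant against wild type arrays (black). Open circles did not pass a limma adjusted p of 0.05, which holds for Shmt1 in premalignant against wild type and for Psph in malignant against premalignant arrays. The fitted changes of Asns and Bcat1 against wild type use values below the detection level, and the text gives their folds as lower bounds.

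The genes of serine synthesis rose before lymphoma, Psat1 most by fold, and the first 2 enzymes of the route rose again in lymphomas while Psph did not. Phgdh, the dehydrogenase that starts the route, had levels of 9.20, 9.02, 8.77 and 8.93 in wild type arrays, 11.05, 10.17, 10.34, 10.38 and 9.77 in premalignant arrays and 10.56 to 11.45 in lymphomas (median 10.97). The lowest premalignant array lay above the highest wild type array, and premalignant replicate 1 lay within the range of the lymphomas. Phgdh averaged 10.34 ± 0.46 in premalignant and 8.98 ± 0.18 in wild type cells (SD, n = 5 and 4), a 2.57-fold rise (limma adjusted p = 0.0018). It rose 1.62-fold in malignant over premalignant cells (limma adjusted p = 0.0031), with 6 of 13 lymphomas above every premalignant array, and 4.17-fold in malignant over wild type cells (1.6e-09).

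Psat1, the aminotransferase of the route's middle step, had levels of 5.20, 5.93, 4.73 and 5.39 in wild type arrays, 8.13, 7.48, 7.64, 7.26 and 7.36 in premalignant arrays and 7.42 to 8.98 in lymphomas (median 8.66). The wild type and premalignant arrays were well apart, and lymphoma 11 at 7.42 was the lowest of its group, within the premalignant range. Psat1 averaged 7.57 ± 0.34 in premalignant and 5.31 ± 0.49 in wild type cells (SD, n = 5 and 4), which is a 4.79-fold rise (limma adjusted p = 0.0002). In malignant over premalignant cells it rose 1.93-fold (limma adjusted p = 0.0013), and 11 of 13 lymphomas exceeded every premalignant array. Over wild type cells lymphomas were 9.22-fold higher (limma adjusted p = 2.5e-09).

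Psph, the phosphatase that releases serine, had levels of 5.93, 5.42, 5.78 and 5.58 in wild type arrays, 6.48, 6.26, 6.84, 6.20 and 6.07 in premalignant arrays and 5.76 to 7.09 in lymphomas (median 6.13). Premalignant arrays lay just above wild type arrays, and the lymphomas spanned the premalignant range and part of the wild type range. Psph averaged 6.37 ± 0.30 in premalignant and 5.68 ± 0.22 in wild type cells (SD, n = 5 and 4), a 1.62-fold rise (limma adjusted p = 0.017). This call was lost with arrays centred on the hybridisation spikes (adjusted p = 0.095) and without wild type replicate 2 and premalignant replicate 1 together (0.064). In malignant against premalignant cells the log2 change of Psph was -0.06 ± 0.20 (SE; limma adjusted p = 0.815), with a sign that turned positive with spike centring or without premalignant replicate 3. Lymphomas were 1.55-fold higher than wild type cells (limma adjusted p = 0.016), and the call was lost without wild type replicate 2 (adjusted p = 0.064).

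The hydroxymethyltransferases rose in lymphomas. Both rose already in premalignant cells on some probe sets, the mitochondrial Shmt2 on its brightest and on 1426423_at, and Shmt1 on each except its brightest. Shmt2 had levels of 6.94, 7.19, 7.13 and 7.30 in wild type arrays, 8.46, 8.45, 8.83, 8.70 and 8.67 in premalignant arrays and 9.57 to 10.47 in lymphomas (median 9.74). On the tested probe set the 3 groups followed each other with no overlap. Shmt2 averaged 8.62 ± 0.16 in premalignant and 7.14 ± 0.15 in wild type cells (SD, n = 5 and 4), a 2.79-fold rise (limma adjusted p = 7.5e-05). Shmt2 rose 2.32-fold in malignant over premalignant cells (limma adjusted p = 2.6e-06) and 6.48-fold in malignant over wild type cells (9.5e-11).

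Shmt1, the cytosolic enzyme, had levels of 5.11, 5.08, 6.13 and 6.56 in wild type arrays, 5.99, 5.67, 6.14, 6.75 and 6.19 in premalignant arrays and 6.69 to 7.50 in lymphomas (median 7.11). The wild type arrays fell into a lower and a higher pair, which the premalignant arrays overlapped. Shmt1 averaged 6.15 ± 0.39 in premalignant and 5.72 ± 0.74 in wild type cells (SD, n = 5 and 4), and the log2 change of 0.43 did not pass (limma adjusted p = 0.371). On the mean of its probe sets Shmt1 passed, with a log2 change of 1.67 (adjusted p = 0.00014). In malignant over premalignant cells the tested probe set rose 1.94-fold (limma adjusted p = 0.00021), with 10 of 13 lymphomas above every premalignant array. In malignant over wild type cells it rose 2.60-fold (limma adjusted p = 5.5e-05), with no overlap.

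The folate enzymes downstream rose in each comparison on their brightest probe sets. Of the other Mthfd1 probe sets, 1415916_a_at did not pass in premalignant against wild type cells, and 1436704_x_at did not pass in any comparison. Mthfd1, the cytosolic enzyme with 3 activities, had levels of 5.35, 5.88, 5.54 and 4.97 in wild type arrays, 8.26, 7.22, 7.22, 7.12 and 6.74 in premalignant arrays and 7.71 to 8.87 in lymphomas (median 8.04). Premalignant replicate 1 reached the lymphoma range, and the other premalignant arrays lay between the other groups. Mthfd1 averaged 7.31 ± 0.56 in premalignant and 5.43 ± 0.38 in wild type cells (SD, n = 5 and 4), a 3.67-fold rise (limma adjusted p = 0.0011). It rose 1.74-fold in malignant over premalignant cells (limma adjusted p = 0.0046), where 3 of 13 lymphomas exceeded every premalignant array, and 6.38-fold in malignant over wild type cells (1.6e-09).

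Mthfd2, its mitochondrial counterpart, had levels of 5.64, 5.08, 4.40 and 4.99 in wild type arrays, 7.24, 7.07, 6.56, 6.48 and 5.46 in premalignant arrays and 7.31 to 9.22 in lymphomas (median 7.84). Premalignant replicate 5 at 5.46 lay below wild type replicate 1, and on the tested probe set each lymphoma lay above each premalignant array. Mthfd2 averaged 6.56 ± 0.70 in premalignant and 5.03 ± 0.50 in wild type cells (SD, n = 5 and 4), a 2.89-fold rise (limma adjusted p = 0.010). In malignant over premalignant cells it rose 2.78-fold (limma adjusted p = 0.00049), and in malignant over wild type cells 8.05-fold (6.5e-08).

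On their brightest probe sets, Asns and Bcat1 were below the detection level in wild type cells and above it in all transgenic arrays. Asns had levels of 3.01, 2.75, 3.01 and 2.81 in wild type arrays, 4.52, 5.44, 5.20, 4.90 and 5.11 in premalignant arrays and 5.04 to 8.14 in lymphomas (median 6.98). Lymphoma 5 at 5.04 lay among the premalignant arrays, and the other 12 lymphomas lay above them. Asns was at least 2.05-fold higher in premalignant than in wild type cells, with the wild type mean taken as log2 4 (limma adjusted p = 6.3e-05). It rose 3.49-fold in malignant over premalignant cells, which averaged 6.83 ± 0.78 and 5.03 ± 0.35 (SD, n = 13 and 5; limma adjusted p = 0.00034). Lymphomas were at least 7.13-fold higher than wild type cells (4.8e-08).

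Bcat1 had levels of 3.03, 3.33, 2.51 and 3.27 in wild type arrays, 7.27, 5.83, 6.65, 6.26 and 5.95 in premalignant arrays and 7.47 to 9.10 in lymphomas (median 8.33). On the tested probe set the groups did not overlap, and premalignant replicate 1 at 7.27 came nearest to the lymphomas. Bcat1 was at least 5.25-fold higher in premalignant than in wild type cells (limma adjusted p = 6.8e-05). It rose 3.99-fold in malignant over premalignant cells, which averaged 8.39 ± 0.56 and 6.39 ± 0.59 (SD, n = 13 and 5; limma adjusted p = 1.9e-05). Lymphomas were at least 20.9-fold higher than wild type cells (3.1e-11).

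Whether the second step differed from the first was tested in 1 fit over the 3 groups, as the malignant over premalignant change minus the premalignant over wild type change. None of the 9 genes passed in limma, and 3 had an unadjusted p under 0.05. Of all genes 5.56% passed (358 genes, but 194 without premalignant replicate 3 and 208 without premalignant replicate 4). Psat1 had the lowest p of the 9, with a difference of -1.31 log2 units (95% interval -2.22 to -0.41, limma adjusted p = 0.077). It passed without wild type replicate 2 or without lymphoma 11 (adjusted p = 0.045 in each). The differences of Mthfd1 (-1.08, interval -1.95 to -0.21, adjusted p = 0.132) and Bcat1 (-1.36, interval -2.50 to -0.23, adjusted p = 0.149) did not pass either. These are differences of the brightest probe sets. On 1454607_s_at of Psat1 the first and second steps were 1.53 and 1.22 log2 units. They were 1.44 and 1.39 on 1415916_a_at of Mthfd1, and 0.08 and 0.15 on its 1436704_x_at. On 1430111_a_at of Bcat1 they were 1.69 and 0.78, with wild type arrays below the detection level. The difference is not given here for these other probe sets. The Bcat1 estimate is no measured size, since all 4 wild type arrays lay below the detection level, and with values below that level set to it the difference was -0.40 (limma adjusted p = 0.729). The same holds for Asns, with -0.34 as fitted and 0.77 with such values set to the level (adjusted p = 0.822 and 0.541). The interval for Mthfd2, -1.26 to 1.15, leaves room for a larger or a smaller second step. For comparison, Myc itself differed by -3.30 (limma adjusted p = 0.00032), since it rose 7.59-fold in premalignant over wild type cells and its log2 change of -0.38 in malignant against premalignant cells did not pass (adjusted p = 0.255). As a description, the premalignant mean had covered 66.1% of the log2 distance from wild type to malignant cells for Phgdh, 70.5% for Psat1, 70.2% for Mthfd1, 55.0% for Shmt2, 54.5% for Bcat1 and 50.9% for Mthfd2, with means below the detection level set to it. The share was 36.4% for Asns, 30.9% for Shmt1 and 110.2% for Psph. It depended on the probe set, and was 49.7%, 56.7% and 81.5% on the other 3 Shmt1 probe sets, 23.1% on the second of Asns and 39.6% on the second of Bcat1. It was 55.7% on the second of Psat1, 50.8% on 1415916_a_at of Mthfd1 and 70.5% on 1426423_at of Shmt2. The second of Mthfd2 gave 52.4%, and the Phgdh probe sets of 1 symbol gave 59.7% to 69.9%. The order of these shares rests on group means and was not tested.

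The other probe sets of the 9 genes were tested one by one among 10789 probe sets. Of the 23 that passed the filter, 19 rose in premalignant over wild type cells, 19 in malignant over premalignant cells and 21 in malignant over wild type cells, and 0 fell in any of them. Of all probe sets 12.7%, 23.2% and 30.5% rose in these comparisons. Probe sets of 1 gene share their RNA, and are not independent. The 4 Phgdh probe sets rose 1.89 to 2.63-fold in premalignant over wild type cells, and the 2 shared with other symbols rose 4.73-fold (with Gm8096) and 2.03-fold (with Gm6756). Bcat1 probe set 1430111_a_at gave smaller folds than the one tested above. It was at least 1.42-fold higher in premalignant than in wild type cells (limma adjusted p = 0.0018), rose 1.71-fold in malignant over premalignant cells (0.036) and was at least 2.44-fold higher in malignant than in wild type cells (1.2e-06). This probe set and 1433966_x_at of Asns each exceeded the detection level in 4 of 5 premalignant arrays. The latter was at least 1.51-fold higher in premalignant than in wild type cells (limma adjusted p = 0.026). In malignant over premalignant cells it rose 3.97-fold (0.00017). Psat1 probe set 1454607_s_at rose 2.89-fold in premalignant over wild type cells (adjusted p = 0.00049), and Mthfd2 probe set 1419253_at rose 3.75-fold in malignant over wild type cells (9.3e-06), both less than the probe sets tested above. The Shmt1 probe sets differed from each other. Probe set 1425179_at was at least 3.95-fold higher in premalignant than in wild type cells, with all 4 wild type arrays below the detection level, and 1422198_a_at at least 3.80-fold higher (limma adjusted p = 0.00014 for both). Shmt1 probe set 1425178_s_at rose 1.69-fold (adjusted p = 0.010), while the one tested above, 1425177_at, did not pass. In malignant over premalignant cells 1422198_a_at of Shmt1 was the one that did not pass (log2 change 0.44, adjusted p = 0.124). Probe sets 1436704_x_at of Mthfd1 and 1455985_x_at of Shmt2 stayed short of the threshold in each comparison, with log2 changes of 0.08 to 0.24 and 0.14 to 0.38. Mthfd1 probe set 1415916_a_at did not pass in premalignant against wild type cells (log2 change 1.44, adjusted p = 0.061).

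**Figure D3:**
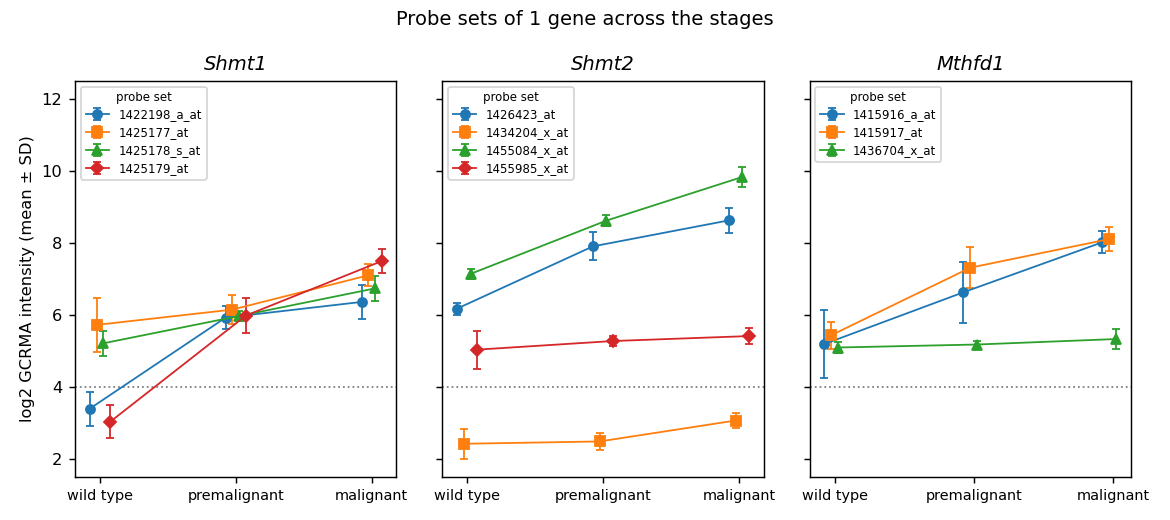
Mean log2 GCRMA intensity with SD of each probe set of Shmt1, Shmt2 and Mthfd1 in wild type (n = 4), premalignant (n = 5) and malignant arrays (n = 13). The dotted line is the detection level of log2 4. Of the Shmt1 probe sets 1422198_a_at and 1425179_at lie below the level in wild type and near 6 in premalignant arrays, and 1 probe set each of Mthfd1 (1436704_x_at) and Shmt2 (1455985_x_at) stays nearly flat near log2 5.

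Genes around the 9 enzymes were read in 6 lists, by counts. Of all genes tested 12.7%, 24.8% and 31.8% rose and 14.1%, 17.3% and 29.7% fell in premalignant over wild type, malignant over premalignant and malignant over wild type cells. Of 10 further genes of serine, glycine and folate metabolism tested, 4 rose in premalignant over wild type cells, 5 in malignant over premalignant cells and 7 in malignant over wild type cells, and 0 fell. Gcsh, the lipoyl carrier of the glycine cleavage system, rose 3.57-fold, 2.37-fold and 8.45-fold in these comparisons (limma adjusted p = 7.5e-05, 1.8e-06 and 3.6e-12). Slc19a1, the reduced folate carrier, rose 3.05-fold, 2.84-fold and 8.65-fold (adjusted p = 0.0043, 5.9e-05 and 3.8e-08), and Gart, a purine synthesis enzyme that uses formyl tetrahydrofolate, rose 2.50-fold, 2.35-fold and 5.89-fold (0.0049, 3.2e-06 and 1.9e-10). The median log2 change of this list was 0.39, 0.47 and 1.15, beside -0.05, 0.09 and 0.04 over all genes.

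In the methionine cycle list of 8 tested genes 1, 4 and 5 rose in the same comparisons, and 2 fell in malignant over wild type cells. The count of 1 in the first comparison is near the share of all genes. Ahcy, which hydrolyses S-adenosylhomocysteine, rose 2.66-fold in premalignant over wild type cells (limma adjusted p = 0.0009). Enoph1 and Mtap of the methionine salvage pathway rose 2.49-fold and 2.22-fold in malignant over premalignant cells (adjusted p = 0.0003 and 0.0011). Of 9 genes for other amino acids, 5, 6 and 7 rose and 0 fell. The 5 include Prodh, whose means of 3.23 in wild type and 3.87 in premalignant arrays lay below the detection level and allow no fold. Got1, the cytosolic aspartate aminotransferase, rose 2.56-fold in premalignant over wild type cells (adjusted p = 0.00017), and Aldh18a1, which starts proline synthesis, rose 1.91-fold there and 1.75-fold in malignant over premalignant cells (0.0061 and 0.00054). The medians of the 2 lists were 0.26 and 0.63 in premalignant against wild type cells and 0.54 and 0.67 in malignant against premalignant cells. The 0.63 is the change of Prodh, between means below the detection level.

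Of 9 genes of branched-chain amino acid breakdown, the pathway that follows the Bcat1 reaction, 2, 2 and 3 rose and 1, 1 and 0 fell, so that in the last 2 comparisons the share that rose was near that of all genes. Acad8, a dehydrogenase of valine breakdown, is counted as risen in each comparison, although its means of 2.74 in wild type, 3.34 in premalignant and 3.90 in malignant arrays all lay below the detection level and allow no fold. Its calls were lost with values below that level set to it. Bckdhb, a subunit of the branched-chain ketoacid dehydrogenase, rose 1.66-fold in malignant over premalignant cells (limma adjusted p = 0.0088), and Ivd of leucine breakdown was 1.49-fold lower (adjusted p = 0.0071, and 0.089 with spike centring). Of 8 amino acid transporters 3, 4 and 3 rose and 1, 0 and 0 fell. Slc7a5, which carries leucine and other large neutral amino acids, rose 4.61-fold, 2.79-fold and 12.9-fold in the 3 comparisons (adjusted p = 1.5e-05, 1.9e-07 and 8.6e-13). Slc3a2, the heavy chain that pairs with it, was 1.48-fold lower in premalignant than in wild type cells (adjusted p = 0.046), but did not pass without any 1 of the 4 wild type arrays (0.081 to 0.095). It rose 1.59-fold in malignant over premalignant cells (adjusted p = 0.00052).

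Of 18 listed genes of Atf4 and the amino acid response, all on the array, only 10 passed the filter on dim signals and were tested. Of these 10 genes 1, 1 and 1 rose and 2, 2 and 4 fell, and the shares that fell are near those of all genes. Eif4ebp1, which restrains cap-dependent translation, was the gene that rose in each comparison, 1.57-fold, 1.50-fold and 2.37-fold (limma adjusted p = 0.037, 0.017 and 5.7e-05). The first of these calls was lost when any 1 of 5 arrays was left out (premalignant replicates 1, 3 and 4, wild type replicates 3 and 4; adjusted p between 0.063 and 0.103) and with spike centring (0.141), and the second without premalignant replicate 2 or 5 (0.061 and 0.056) and with spike centring (0.073). Atf4 mRNA, named here after its values were seen, did not pass in any comparison (log2 change -0.14 in premalignant against wild type cells and 0.14 in malignant against premalignant cells, limma adjusted p = 0.687 and 0.450). The arrays measure RNA, and the protein and activity of Atf4 were not measured. Eif2ak3, an upstream kinase of Atf4, was 2.20-fold lower in malignant than in premalignant cells (adjusted p = 0.00028), and Ppp1r15a, which acts against that kinase, was at least 5.75-fold lower (8.9e-08). The median log2 change of the list was 0.03 in premalignant against wild type and -0.32 in malignant against premalignant cells. The list holds no member of the 9 genes, although Asns, Psat1, Phgdh and Mthfd2 are known Atf4 targets too.

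**Figure D4:**
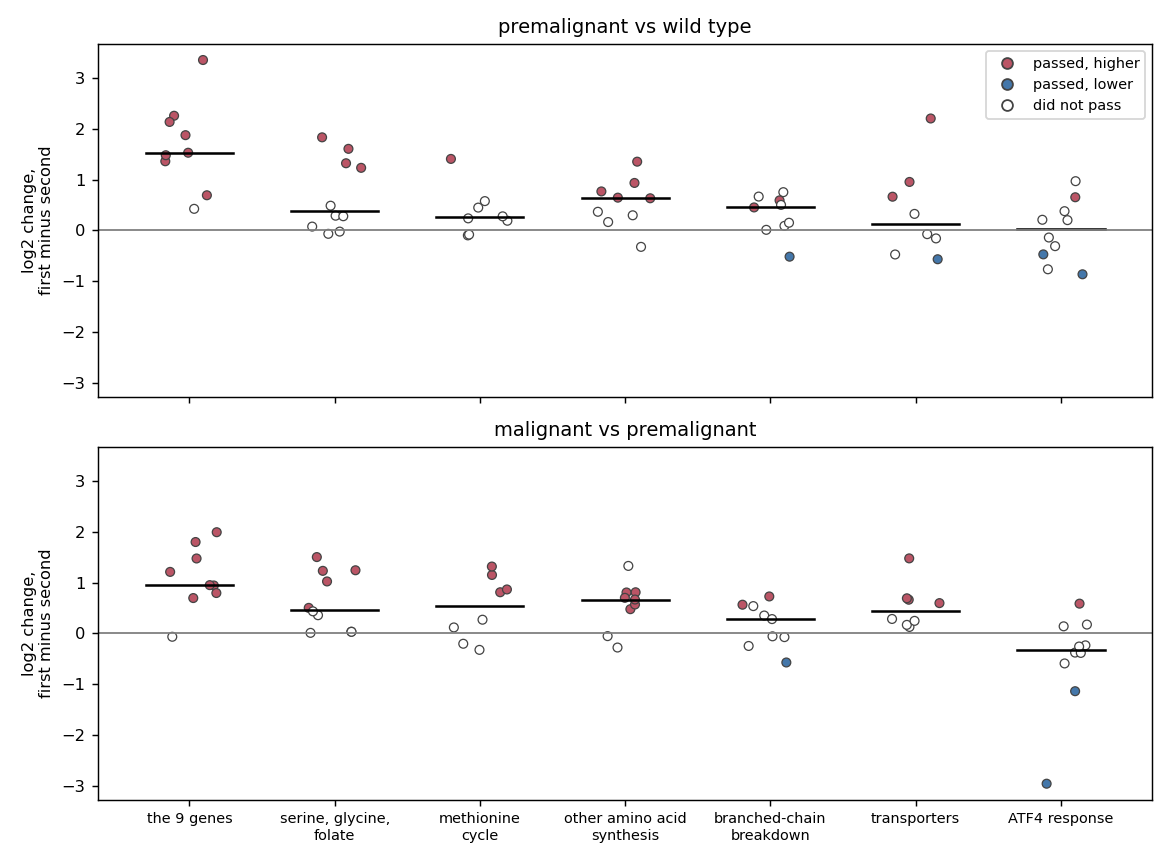
Log2 change of each gene tested, by list, in premalignant against wild type (upper panel) and malignant against premalignant arrays (lower panel), with 1 point per gene and a bar at the median. Red points rose and blue points fell at a limma adjusted p under 0.05, and open points did not pass. The 9 genes have medians of 1.53 and 0.95, the response list of Atf4 0.03 and -0.32.

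Among the 13 lymphomas the 9 genes differed in how much they varied. Asns had the largest SD, 0.78 log2 units, higher than that of 92.5% of all genes, and an 8.59-fold range. Bcat1 (SD 0.56, percentile 84.1), Mthfd2 (0.55, 83.4), Psat1 (0.43, 71.6) and Psph (0.42, 69.5) varied more than the median gene, whose SD was 0.33. Phgdh (0.27, percentile 30.7), Shmt2 (0.28, 35.6) and Shmt1 (0.30, 41.4) varied less, and Mthfd1 (0.34, 52.2) about as much. Lymphoma 5 had the lowest Asns, Phgdh and Psph. Lymphoma 11 had the highest Asns (8.14) and Shmt2 (10.47) and the lowest Psat1 (7.42), so that the genes were not all high or low in the same tumours. Lymphoma 10 had the highest Psat1, Mthfd1 and Bcat1.

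**Figure D5:**
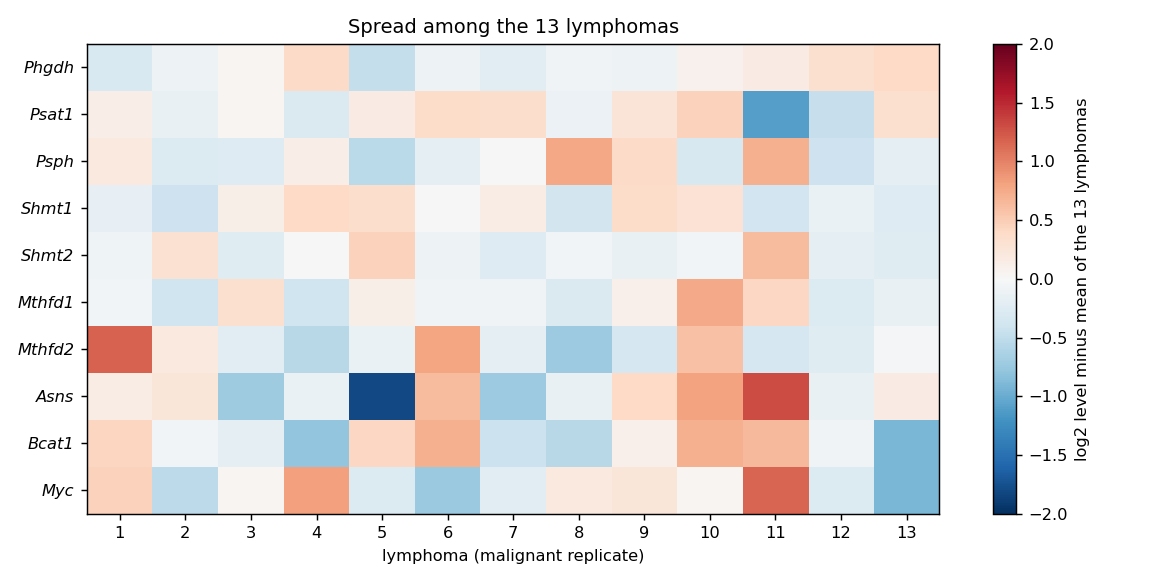
Log2 level minus the mean of the 13 lymphomas for the 9 genes and Myc (rows) in each lymphoma (columns), in red above and in blue below the mean. Asns in lymphoma 5 and Psat1 in lymphoma 11 are the darkest blue cells, and Asns in lymphoma 11 is among the darkest red.

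The levels of the 9 genes among lymphomas were correlated with each other and with Myc, 45 relations in all. None passed after Benjamini-Hochberg adjustment (lowest adjusted p = 0.337), and 5 had an unadjusted p under 0.05 in permutation tests. The strongest was that of Psph with Myc (Pearson r = 0.67, permutation p = 0.013, adjusted p = 0.337; Spearman rho = 0.65, permutation p = 0.018, adjusted p = 0.538; n = 13). Without the 2 lymphomas farthest from the median of Myc, r was 0.54. Mthfd1 with Bcat1 had r = 0.62 and rho = 0.60 (permutation p = 0.024 and 0.033, adjusted p = 0.337 and 0.538), and r was 0.39 without the 2 lymphomas farthest from the median of Mthfd1. Psat1 with Myc had r = -0.61 and rho = -0.46 (permutation p = 0.025 and 0.121), and r was -0.22 without the 2 lymphomas farthest from the median of Myc. Correlations of member pairs passed for 8 relations when arrays were centred on the spikes, which adds 1 offset to every gene of an array.

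As a description, the genes with the most similar pattern over the 22 arrays were listed for each of the 9, by Pearson r. These points share the 3 stages, and markers of dividing cells differed between the stages too. Phgdh was most like the mitotic genes Bub1b and Cdc20 and the heterochromatin protein Cbx5 (r = 0.96 each), and Psat1 most like Fignl1, the mitotic kinase Plk1 and the dUTPase Dut (0.97, 0.97 and 0.96). Shmt2 was most like the glycolytic enzyme Tpi1, the ribosome biogenesis factor Rrp1b and Slc7a5 (each 0.97), and Bcat1 most like Mif, Trip13 and Tpi1 (0.98, 0.98 and 0.97). Mthfd1 was most like Bzw2, Mif and Ifrd2 (each 0.96), Mthfd2 most like the arginine methyltransferase Prmt1, the histone chaperone Nasp and Nudc (0.97, 0.96 and 0.95), and Asns most like Cdca7l, the replication helicase subunit Mcm2 and Cisd1 (0.94, 0.94 and 0.93). Psph had weaker matches, Kctd20, Psmd8 and Ifrd1 (0.79, 0.78 and 0.76). Shmt1 was most like the deubiquitinase Usp10, both over all 22 arrays (r = 0.91) and over the 13 lymphomas (0.94). Within the lymphomas the first match was Pigk for Asns (0.91), Col4a2, a basement membrane collagen, for Bcat1 (0.90), Ppp4c for Mthfd2 (0.91), Tbcc for Shmt2 (0.93), Map2k4 for Psat1 (0.90), Cpsf4 for Psph (0.87), Cinp for Mthfd1 (0.86) and Mdp1 for Phgdh (0.82).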

How the data were processed

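RNA of 4 wild type, 5 premalignant and 13 malignant B cell samples was hybridised to Affymetrix MOE430A arrays, 1 array per sample. The deposited values are intensities on a linear scale, from 2.11 to 18277, for 22690 probe sets per array, and the authors made them with GCRMA, per the submitters' processing notes. The version of GCRMA is one detail not given in the sources used here. GCRMA removes a background estimated from probe sequence, which holds dim probe sets near a common floor. The log2 of the deposited intensity was taken here.

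In the platform annotation 20380 probe sets have 1 gene symbol, 691 have several, 1555 have none and 64 are controls, and 0 symbols changed when looked up by Entrez identifier. Probe sets above log2 4 on at least 4 arrays were kept (10789), and each of 6437 genes was tested through its probe set of 1 symbol with the highest mean. Means below log2 4 were set to it for folds, written as at least N-fold. Each comparison was fitted on its 2 groups with limma 3.58.1 (lmFit, eBayes, two-sided) in R 4.3.3, with Benjamini-Hochberg adjustment over all genes and a threshold of 0.05. The difference between the steps used 1 fit over the 3 groups. Correlations used 100000 permutations over the 13 lymphomas, two-sided. Intervals of the step difference are 95% intervals on 19 residual degrees of freedom. On simulated data with 200 of 6437 genes changed, 73%, 81% and 77% of genes changed 2-fold and 96%, 94% and 93% of those changed 4-fold were recovered in premalignant against wild type, malignant against premalignant and malignant against wild type arrays. The simulated noise was normal and independent between genes, and more genes were called in the real data, so that recovery there may differ. False calls in the simulation are not given here. The number of arrays limits the precision.

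The 9 genes, the lists and the cell type markers were chosen with earlier results of these data known. Genes named beside the 9 are Myc, for each list and comparison at most 3 of the genes called in the commoner direction and 1 called in the opposite one, and the 3 genes most alike by Pearson r. Not all of them are named, and those whose call was lost without any single array were mostly left out. Alternatives changed the filter, the choice of probe set, the floor, the centring of arrays (on the median or on 18 hybridisation spike probe sets), the fit, the replicates and the replicate block. The labels do not say whether equal replicate numbers pair samples, and the main fits treat the samples as unpaired. Same-numbered wild type and premalignant arrays deviated with correlations of -0.064 to 0.21. Promoter windows are from RefSeq, build GRCm38.p6.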

Additional observations from a re-analysis of the deposited data

How the results depend on the processing

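The counts of the 9 genes that rose kept within 1.5 times of 8, 8 and 9 in all alternatives. They ranged from 8 to 8, 8 to 8 and 8 to 9 when each array was left out in turn, and 0 of the 9 were called higher in the difference between the steps in any setting. In the other direction, Psat1 was called with a smaller second step without wild type replicate 2 and without malignant replicate 11 (limma adjusted p = 0.045 in each). Over all genes, 1725, 2711 and 3956 passed in premalignant vs wild type, malignant vs premalignant and malignant vs wild type, and 358 in the difference between the steps, with ranges of 1292 to 1804, 2236 to 2739, 3585 to 3978 and 194 to 408 when each array was left out in turn. The lowest of the last range came without premalignant replicate 3 (194), and 208 passed without premalignant replicate 4. With spike centring the median log2 change over all genes was 0.20, 0.22 and 0.43 in these comparisons, against -0.05, 0.09 and 0.04. It left 560 genes (455 higher and 105 lower, against 818 and 907) in premalignant vs wild type, 1771 (1209 higher and 562 lower, against 1597 and 1114) in malignant vs premalignant, 2349 higher and 788 lower (against 2045 and 1911) in malignant vs wild type and 70 in the difference between the steps. With it 8 correlations of member pairs among lymphomas passed, against 0. Without the filter, with more genes tested, 4929 genes passed in malignant vs premalignant and 7921 in malignant vs wild type.

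With the replicate number as a block, 1677 genes passed in malignant vs premalignant and 165 in the difference between the steps, and Phgdh (adjusted p = 0.081) and Mthfd1 (0.074) did not pass in malignant vs premalignant. As far as the labels say, the samples of a block share only a number. The log2 change of Psph in malignant vs premalignant turned to 0.072 with spike centring and 0.054 without premalignant replicate 3, the highest value with 1 array left out, of which the lowest was -0.14. In the difference between the steps, Shmt1 turned to -0.75 on the mean of probe sets. Asns turned to 0.32 on that mean and to 0.77 with values below the detection level set to it. Mthfd2 turned to 0.15 when wild type replicate 3 was left out, to 0.29 or 0.20 when premalignant replicate 1 or 2 was, to 0.0069 without malignant replicate 8 (range with 1 array left out -0.60 to 0.29) and to 0.27 without wild type replicate 2 and premalignant replicate 1, an alternative chosen after the data were examined. None of these reversed values passed a test in either direction, and the cause was not tested. Of 1010 values of the 9 genes and Myc under these settings 991 kept direction and side of the threshold. Intensities near the floor limit the folds of Asns and Bcat1 over wild type cells to bounds.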

Other observations

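Some genes whose levels followed 1 of the 9 genes among the 13 lymphomas lay on the same chromosome, a count made after the lists of similar genes were seen. Of the 20 tested genes most like Mthfd1 by Pearson r, 14 are on its chromosome, 12, which holds 3.45% of the tested genes. The count is 8 for Phgdh on chromosome 3, 6 for Psph on chromosome 5 and 1 or 2 for each of the other 6 genes, where the median over all genes is 2. As many as 14 are found for 3.23% of all genes, as many as 8 for 10.1% and as many as 6 for 14.5%. The median r of Mthfd1 was 0.38 with tested genes on its own chromosome and -0.034 with those on other chromosomes, and it was 0.30 and -0.057 for Phgdh and 0.23 and -0.0059 for Psph. Chromosomes are those of the RefSeq annotation, build GRCm38.p6.

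Premalignant replicate 1 was the highest premalignant array for 5 of the 9 genes, and likewise for 50.2% of the 818 genes that rose in premalignant over wild type cells. Premalignant replicate 5 was the lowest for 4 of the 9, and for 57.2% of those 818 genes.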
